A study of Mus musculus with 9 samples.

Results

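A group of 10 long non-coding genes that carry small nucleolar RNAs (snoRNAs) or a related small RNA inside them was examined: Gas5, Zfas1, Snhg3, Snhg5, Snhg6, Snhg8, Snhg12, Snhg15, Snhg17 and Snhg20. They were found by symbol in the deposited count table, where 10 of 10 were present among 55450 genes. They had been chosen by their own counts at the 3 times, because several were lower at 30 min of lipopolysaccharide (LPS) and back towards their starting level by 60 min, so these values are a description and carry no test. All 10 passed the filter on low counts, which left 14246 genes.

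The cells were IMM, an immortalized line of mouse macrophages labelled WT, grown for 5 passages after thawing. LPS, a bacterial outer-membrane lipid sensed by macrophages through Tlr4, was given at 100 ng/mL for 30 or 60 min, and cells at 0 min, whose treatment label reads none, were the control. Each time had 3 libraries, described as biological replicates, of total RNA depleted of ribosomal RNA. All 9 libraries came from this 1 line and none was left without LPS for 30 or 60 min, so LPS, handling and elapsed time cannot be told apart. Dishes were put on ice and washed before lysis.

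A snoRNA host gene is transcribed and spliced, and the snoRNAs are trimmed out of its introns. Box C/D snoRNAs guide the methylation of ribose in ribosomal RNA, H/ACA snoRNAs guide the conversion of uridine to pseudouridine, and scaRNAs do the same for spliceosomal RNAs in Cajal bodies. The spliced exons that remain encode no long protein in these hosts. Many such transcripts are exported, engaged by ribosomes and removed by nonsense-mediated decay, and several start with the pyrimidine tract of 5′ TOP RNAs, whose translation follows growth signalling through mTOR. Gas5 was named for its accumulation in growth-arrested cells, and Zfas1 for the gene Znfx1 on the opposite strand.

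The GENCODE M21 annotation (GRCm38) placed 29 small RNA genes inside the 10 hosts on the same strand, 28 of them snoRNAs and 1 a scaRNA. Snord80 in Gas5 and Snora16a in Snhg12 each have 2 overlapping entries at nearly the same position. Both entries are counted here and below, so there are fewer distinct small RNAs than entries. Gas5 (ENSMUSG00000053332.13, chr1:161034422-161038539, plus strand) held 10, Zfas1 (ENSMUSG00000074578.13, chr2:167062934-167065862, plus strand) held 3, Snhg5 (ENSMUSG00000097195.9, chr9:88521050-88522929, minus strand) held 2 and Snhg6 (ENSMUSG00000098234.7, chr1:9941959-9944118, minus strand) held 1. Snhg3 (ENSMUSG00000085241.7, chr4:132348014-132353686, minus strand) held 2, Snhg8 (ENSMUSG00000104960.1, chr3:123507552-123508404, minus strand) held 1, Snhg15 (ENSMUSG00000085156.7, chr11:6525591-6528760, minus strand) held 1 and Snhg17 (ENSMUSG00000085385.7, chr2:158353700-158361580, minus strand) held 3. Snhg12 (ENSMUSG00000086290.9, chr4:132308623-132311024, plus strand) held 5. Snhg20 (ENSMUSG00000086859.4, chr11:117076008-117078955, plus strand) held no annotated snoRNA and 1 scaRNA, so the name snoRNA host goes further than this annotation for it. Snhg12 and Snhg3 lie close together on chromosome 4, on opposite strands.

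The small RNAs show what each host carries. Box C (TGATGA) was sought in the first 20 bases and box D (CTGA) in the last 20 bases. Both were found in 15 of the 29 small RNA genes. Only in the rest was an ACA followed by at most 4 bases at the 3′ end sought. It was found in 11 of them, and neither pattern in 3. Only the given strand was searched. By these letters Gas5 (8 of 10), Zfas1 (3 of 3), Snhg5 (2 of 2) and Snhg6 (1 of 1) carried box C/D RNAs, while Snhg3 (2 of 2), Snhg8 (1 of 1), Snhg15 (1 of 1), Snhg17 (3 of 3) and Snhg20 (1 of 1) carried RNAs with a 3′ ACA. Snhg12 carried both kinds, with 1 box C/D RNA, 3 with a 3′ ACA and 1 with neither. The DNA sequences below run 5′ to 3′ on the strand of the gene, come from the GENCODE transcripts, and are those whose counts could be tested plus examples of either kind; capitals mark box C and box D, or the ACA.
Gm22357 in Gas5 (chr1:161036057-161036139): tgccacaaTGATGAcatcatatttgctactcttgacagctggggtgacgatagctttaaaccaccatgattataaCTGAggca
Snord12 in Zfas1 (chr2:167065276-167065365): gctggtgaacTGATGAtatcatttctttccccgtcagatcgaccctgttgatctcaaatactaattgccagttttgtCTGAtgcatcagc
Snord50a in Snhg5 (chr9:88521529-88521600): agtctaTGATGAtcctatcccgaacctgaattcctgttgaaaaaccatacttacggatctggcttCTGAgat
Snord50b in Snhg5 (chr9:88521797-88521868): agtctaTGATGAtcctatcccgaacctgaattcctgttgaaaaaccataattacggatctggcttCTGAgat
Snora73a in Snhg3 (chr4:132352775-132352979): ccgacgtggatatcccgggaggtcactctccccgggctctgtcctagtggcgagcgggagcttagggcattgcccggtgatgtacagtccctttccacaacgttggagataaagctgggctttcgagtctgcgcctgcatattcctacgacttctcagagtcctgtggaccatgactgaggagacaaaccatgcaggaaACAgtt
Snora73b in Snhg3 (chr4:132352322-132352526): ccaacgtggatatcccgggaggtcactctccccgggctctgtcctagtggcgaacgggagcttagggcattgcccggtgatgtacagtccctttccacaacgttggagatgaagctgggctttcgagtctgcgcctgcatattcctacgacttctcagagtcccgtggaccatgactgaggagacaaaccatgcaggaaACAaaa
Snora24 in Snhg8 (chr3:123507937-123508066): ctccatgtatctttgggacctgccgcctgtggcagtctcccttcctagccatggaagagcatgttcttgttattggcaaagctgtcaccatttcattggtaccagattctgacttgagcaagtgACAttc
Snora44 in Snhg12 (chr4:132309941-132310069): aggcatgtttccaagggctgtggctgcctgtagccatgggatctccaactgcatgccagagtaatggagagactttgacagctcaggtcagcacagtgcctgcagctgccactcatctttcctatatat
Gm26083 in Snhg20 (chr11:117077243-117077435): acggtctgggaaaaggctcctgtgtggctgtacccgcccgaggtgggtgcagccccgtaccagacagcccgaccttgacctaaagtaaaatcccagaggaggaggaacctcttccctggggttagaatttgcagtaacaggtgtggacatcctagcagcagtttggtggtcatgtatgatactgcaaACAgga
Snord50a and Snord50b differed at 1 of 72 positions, and Snora73a and Snora73b at 7 of 205. Reads from such pairs, and reads from a small RNA and an exon that covers it, were shared out by the counting program. Of the 29 small RNA genes, 27 overlapped an exon of at least 1 annotated transcript of their host. For Zfas1, Snhg8 and Snhg12 the annotated exons together cover the whole gene, and for Gas5 3760 of 4118 bases, so reads from retained introns count towards the host.

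Levels are CPM (read counts scaled to a common library total) of libraries holding 26867428 to 30402308 counts, and a log2 change of -1 is a halving. Summed over the 10 hosts, the level was 460, 505 and 474 CPM in the 3 libraries at 0 min, 382, 351 and 362 CPM at 30 min, and 451, 440 and 417 CPM at 60 min. The 3 times thus averaged 480 ± 23.4, 365 ± 15.5 and 436 ± 17.6 CPM (SD, n = 3), with the 30 min libraries below all the others. Gas5 had the largest share of any single gene, with means of 182, 128 and 143 CPM. The other 9 genes together averaged 297 ± 12.5, 237 ± 11.0 and 293 ± 11.7 CPM (SD, n = 3). As these are bulk samples, fewer cells of a kind and less RNA per cell cannot be told apart.

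The median log2 change of the 10 hosts was -0.49 from 0 to 30 min, against 0.01 over all 14246 genes and -0.12 over the 1108 other long non-coding genes. From 30 to 60 min the median was 0.25, against 0.00 over all genes and 0.05 over the other long non-coding genes, and from 0 to 60 min it was -0.05, against 0.00 and -0.08. At 30 min, 7 of the 10 had all 3 libraries below all 3 of 0 min, where 11.7% of all genes did. Of the 10, 6 were called lower by edgeR at an adjusted p under 0.05 (3.35% of all genes) and 0 were called higher (4.84%) or had all libraries higher (14.1%). From 30 to 60 min, 10 of 10 had all 3 later libraries above the earlier ones (17.1% of all genes), and 8 were called higher (8.87%); 0 were called lower (7.65%) or had all libraries lower (16.7%). From 0 to 60 min, 4 were called lower (11.7%) and 2 higher (13.3%), with 5 lower (18.7%) and 3 higher (19.6%) without overlap. The full course of lower at 30 min and higher again at 60 min, without overlap in either step, was shown by 7 of the 10 and by 2.96% of all genes, and the opposite course by 0 and by 3.29%; the first course with edgeR calls in both steps was shown by 5 and by 0.807%. Since the hosts were picked for this course, nothing is read from these shares.

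**Figure D1:**
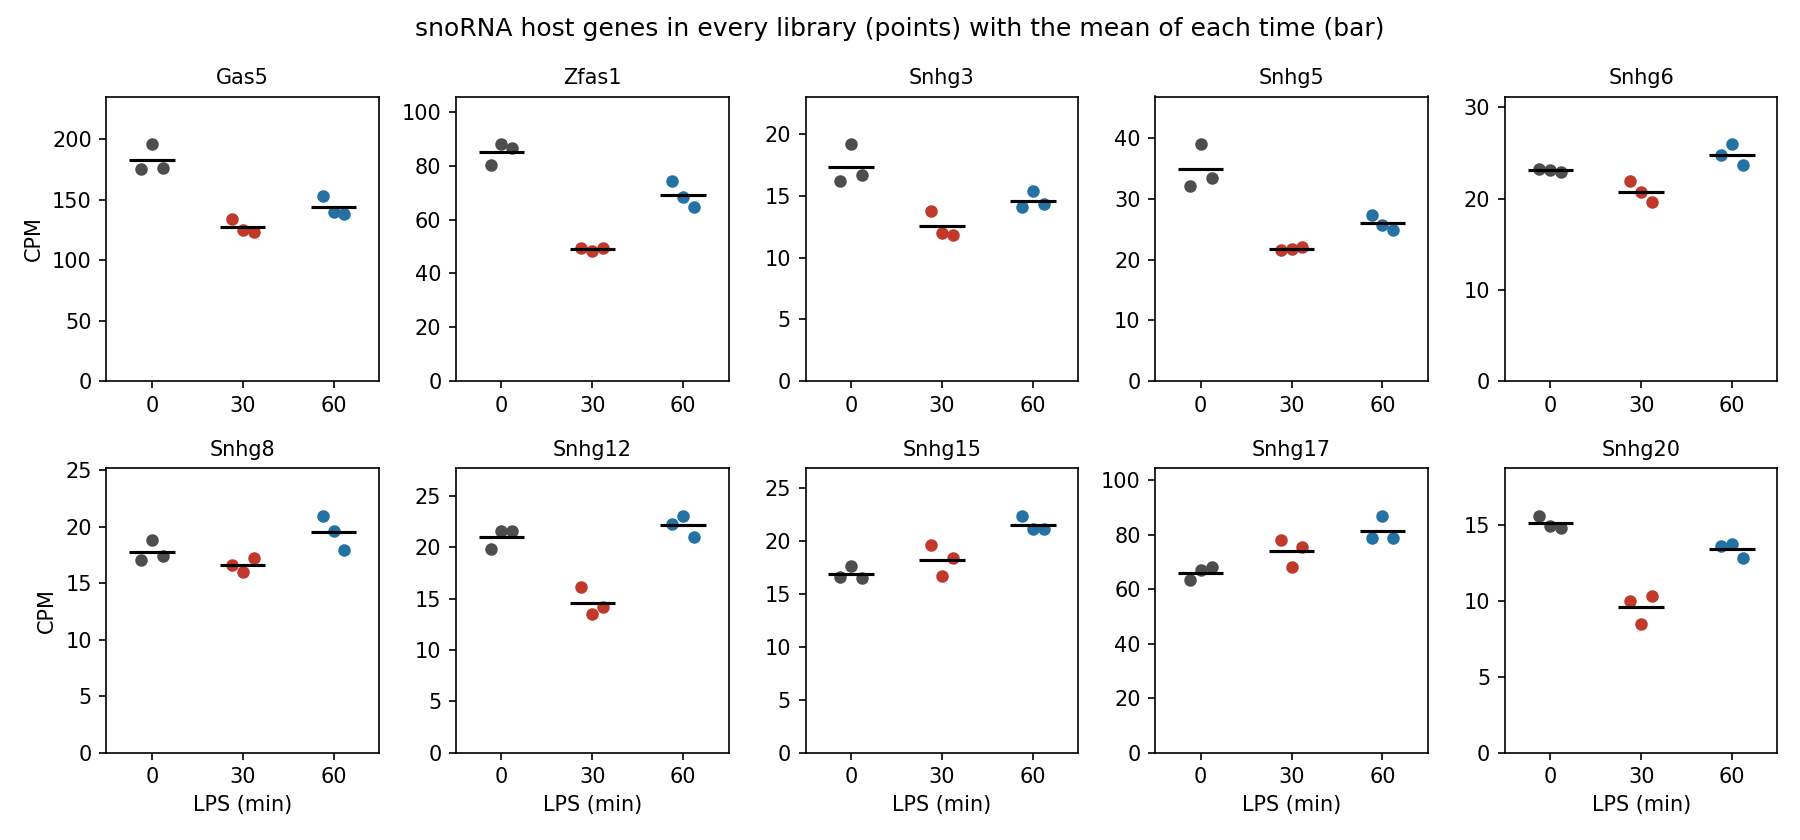
CPM of each of the 10 host genes (vertical axis, from 0, a separate scale per gene) against minutes of LPS; points are the 3 libraries of each time and bars their mean. In 7 panels all 30 min points lie below the 0 min points, while Snhg8, Snhg15 and Snhg17 overlap at those times, and in all 10 panels the 60 min points lie above the 30 min points.

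Among the hosts of box C/D snoRNAs, Gas5 was the most abundant, at 175, 196 and 176 CPM at 0 min, 134, 125 and 123 CPM at 30 min, and 153, 140 and 138 CPM at 60 min. The 3 groups did not overlap: 30 min was lowest, and 60 min lay between the other two. The log2 change was -0.51 (SE 0.05) at 30 min and -0.35 (SE 0.05) at 60 min, which is 29.9% and 21.3% below 0 min, so 32.5% of the log2 difference at 30 min had been regained by 60 min.

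Zfas1, at 80.4, 88.2 and 86.6 CPM at 0 min, measured 49.6, 48.4 and 49.5 CPM at 30 min and 74.3, 68.3 and 64.7 CPM at 60 min. Its libraries at 30 min were close together and far below the rest, and no 60 min library reached the 0 min range. This was the lowest log2 change of the 10 at 30 min, -0.79 (SE 0.05, 42.2% below 0 min), followed by 0.49 (SE 0.05) from 30 to 60 min, which regained 62% of it.

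Snhg5 was present at 32.2, 39.1 and 33.5 CPM at 0 min, 21.6, 21.7 and 22.1 CPM at 30 min, and 27.3, 25.8 and 24.9 CPM at 60 min. The order of the times was that of Gas5, again without overlap. Its log2 change was -0.68 (SE 0.07) at 30 min and -0.43 (SE 0.07) at 60 min, the latter the lowest of the 10, and 37.4% had been regained.

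Snhg6, the host of Snord87, differed least among the C/D hosts. It was at 23.3, 23.1 and 22.9 CPM at 0 min, 21.9, 20.7 and 19.6 CPM at 30 min, and 24.8, 26 and 23.7 CPM at 60 min. The 60 min libraries lay above those of both earlier times. The log2 change was -0.15 (SE 0.06) at 30 min and 0.10 (SE 0.06) at 60 min, nearer to 0 than those of Gas5, Zfas1 and Snhg5.

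Snhg12 and Snhg20 also had their lowest level at 30 min. Snhg12, with RNAs of both kinds, was at 19.8, 21.6 and 21.6 CPM at 0 min, 16.1, 13.5 and 14.2 CPM at 30 min, and 22.3, 23.1 and 21.0 CPM at 60 min. Its 60 min libraries overlapped those of 0 min. The log2 change was -0.53 (SE 0.07) at 30 min and then 0.60 (SE 0.07) from 30 to 60 min, the highest of the 10 in that step, which left it 0.08 (SE 0.07) above 0 min.

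Snhg20, with its scaRNA, was at 15.6, 14.9 and 14.8 CPM at 0 min, 10.0, 8.46 and 10.3 CPM at 30 min, and 13.6, 13.7 and 12.8 CPM at 60 min. The 60 min libraries stayed below the 0 min range. Its log2 change was -0.65 (SE 0.08) at 30 min and -0.17 (SE 0.08) at 60 min, with 73.2% regained. It had the fewest counts of the 10, 817 over the 3 libraries at 30 min, against 15756 for Gas5 at 0 min.

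Among the hosts of snoRNAs with a 3′ ACA alone, Snhg3 had its 30 min libraries below those of 0 min, while those of Snhg8, Snhg15 and Snhg17 overlapped them; a difference between the kinds of host was not tested. Snhg3 was at 16.2, 19.2 and 16.7 CPM at 0 min, 13.8, 12 and 11.8 CPM at 30 min, and 14.1, 15.4 and 14.3 CPM at 60 min. Its groups did not overlap, although the 30 and 60 min libraries nearly met. The log2 change was -0.47 (SE 0.08) at 30 min and -0.25 (SE 0.08) at 60 min, with 46.4% regained.

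Snhg8 was at 17.1, 18.8 and 17.4 CPM at 0 min, 16.6, 16 and 17.2 CPM at 30 min, and 21.0, 19.6 and 17.9 CPM at 60 min. Its 30 min libraries overlapped those of 0 min, as did its 60 min libraries. The log2 change was -0.10 (SE 0.07) at 30 min and 0.14 (SE 0.07) at 60 min.

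Snhg15 and Snhg17 had higher means at 30 min than at 0 min. Snhg15 was at 16.6, 17.6 and 16.5 CPM at 0 min, 19.6, 16.7 and 18.4 CPM at 30 min, and 22.4, 21.1 and 21.1 CPM at 60 min. Snhg17 was at 63.3, 66.9 and 68.1 CPM at 0 min, 78.1, 68.0 and 75.7 CPM at 30 min, and 78.9, 87.1 and 78.7 CPM at 60 min. For both genes the 30 min libraries overlapped those of 0 min, and the 60 min libraries were above all the others. The log2 change of Snhg15 was 0.11 (SE 0.07) at 30 min and 0.35 (SE 0.07) at 60 min, and that of Snhg17 was 0.16 (SE 0.06) and 0.30 (SE 0.06). These courses go against the dip for which the group was chosen.

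**Figure D2:**
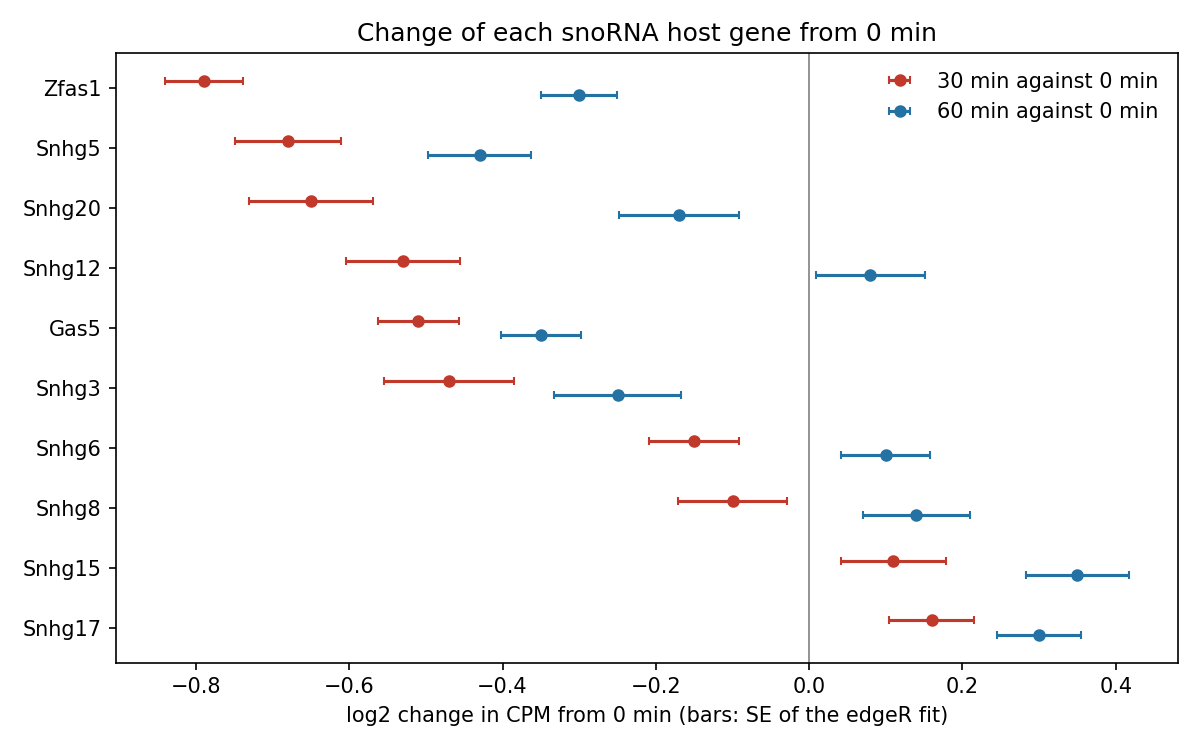
log2 change in CPM from 0 min (horizontal axis) for the 10 host genes (vertical axis), at 30 min and 60 min; points are the estimates of the edgeR fit and bars their SE. Changes at 30 min run from -0.79 (Zfas1) to 0.16 (Snhg17), and each gene's 60 min point lies to the right of its 30 min point.

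The log2 fold changes at 30 min in the authors' deposited table were close to these, at -0.80 for Zfas1, -0.68 for Snhg5, -0.52 for Gas5 and 0.15 for Snhg17. At 60 min the authors' deposited table gave -0.30, -0.43, -0.35 and 0.30 for the same genes. These come from the same libraries and are no separate evidence.

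Over the 9 libraries, log2 CPM of Gas5 and Snhg5 had a Pearson r of 0.982, Zfas1 and Snhg20 one of 0.948, and Zfas1 and Snhg5 one of 0.947. At the other end stood Gas5 with Snhg17 (r = -0.55) and Snhg5 with Snhg17 (r = -0.52). The genes share libraries, scaling and the 3 times, so these values describe how alike the courses were.

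Per kilobase of annotated exon, Gas5 was the highest at each time, at 48.4, 34.0 and 38.1 CPM per kb at 0, 30 and 60 min. The divisor joins the exons of all annotated transcripts, which cover 986 of 5673 bases for Snhg3 but 7052 of 7881 for Snhg17. The order between genes therefore depends on the annotated transcripts as well as on the level. Snhg20 was the lowest, at 5.41, 3.44 and 4.79 CPM per kb. Zfas1 was second at 0 min (29.0 CPM per kb) and the fourth at 30 min (16.8), behind Snhg8 (19.5) and Snhg6 (18.1), and at 60 min it was second again (23.6). Between these, the order at 0 min was Snhg8 (20.8), Snhg5 (20.2), Snhg6 (20.2), Snhg3 (17.6), Snhg15 (12.5), Snhg17 (9.38) and Snhg12 (8.75 CPM per kb). Libraries of neighbours overlapped for Snhg8 with Snhg5, Snhg5 with Snhg6 and Snhg17 with Snhg12. At 30 min Snhg15 (13.4), Snhg3 (12.7) and Snhg5 (12.6 CPM per kb) followed Zfas1, each overlapping its neighbour, with Snhg17 (10.5) and Snhg12 (6.07) below them. At 60 min, Zfas1 and Snhg8 (22.8), Snhg8 and Snhg6 (21.7), Snhg15 (15.8) and Snhg5 (15.0), and Snhg5 and Snhg3 (14.8) overlapped, with Snhg17 at 11.6 and Snhg12 at 9.22 CPM per kb.

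Promoters were compared with those of all genes because 5′ TOP RNAs start in a run of C and T. The RefSeq table of GRCm38.p6 held 11 starts of 9 hosts, Snhg6 missing. An unbroken run of at least 8 C or T bases within 20 bases either side of the start was found in 1 of the 11 (9.09%), against 16% of 32851 promoters and 44.1% of 68 ribosomal protein promoters. That promoter was Snhg12, with a run of 9 bases. The median longest run was 6 bases for the hosts, 5 for all promoters and 7 for ribosomal protein promoters. A run could lie anywhere in this window, so these values do not show how many of the RNAs start in one. Every other host start had a longest run of under 8 bases. The following windows are examples, and each runs from 20 bases before to 20 bases after the boundary of the start, on the strand of the gene. The longest run of C and T is in capitals, and the Gas5 window is the one at the later of 2 starts.
Snhg12 (chr4:132308658-132308697): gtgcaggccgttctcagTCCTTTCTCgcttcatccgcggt
Gas5 (chr1:161035146-161035185): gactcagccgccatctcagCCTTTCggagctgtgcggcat
Snhg8 (chr3:123508317-123508356): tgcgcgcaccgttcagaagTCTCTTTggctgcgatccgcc
Zfas1 (chr2:167062914-167062953): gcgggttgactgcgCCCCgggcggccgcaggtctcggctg
In the 300 bases from 250 before to 50 after the start, both strands searched, GGGCGG was found in 8 of the 11 (72.7%), against 35.7% of all promoters and 61.8% of ribosomal protein promoters. TATAAA was found in 27.3% of them against 13.6%, CCAAT in 27.3% against 37.4%, and CACGTG, in Snhg15, in 9.09% against 7.15%. No match says only that these letters were not in this window.

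Most of the small RNAs inside the hosts were hardly captured: 11 of the 29 had 0 counts in every library, 13 had 1 to 100 counts over the 9 libraries, and 5 had more and could be tested. All 5 are given here with edgeR's adjusted p over all genes. Snora73b in Snhg3 was at 9.79, 7.91 and 12 CPM at 0 min, 12.6, 11.0 and 13.7 CPM at 30 min, and 10.8, 12.9 and 11.4 CPM at 60 min. Its near copy Snora73a was at 9.72, 8.57 and 10.3 CPM, then 10.9, 10.6 and 12.9 CPM, then 11.9, 11.3 and 10.3 CPM. Neither passed at 30 min (log2 0.32, SE 0.13, adjusted p = 0.166 and log2 0.26, SE 0.10, adjusted p = 0.127) or at 60 min (log2 0.23 for both, adjusted p = 0.217 and 0.110). Snhg3 had a lower mean at both times, but both small RNAs also lie inside Rcc1 on the same strand, which is given below.

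Snora44 in Snhg12 had few counts, 8, 12 and 16 at 0 min, 24, 27 and 20 at 30 min, and 26, 35 and 22 at 60 min. Every library with LPS was above every library without it. It rose at 60 min (log2 1.19, SE 0.30, adjusted p = 0.00872) but did not pass at 30 min (log2 1.00, SE 0.30, adjusted p = 0.060), and the call at 60 min was lost without 60 min replicate 2 (adjusted p = 0.0514). The scaRNA Gm26083 in Snhg20 was at 2.64, 2.78 and 3.50 CPM at 0 min, 4.37, 4.34 and 3.65 CPM at 30 min, and 3.82, 4.78 and 2.75 CPM at 60 min, and passed at neither time (log2 0.47, SE 0.18, adjusted p = 0.155 and log2 0.34, adjusted p = 0.203). Gm22357 in Gas5 was at 0.990, 1.72 and 1.23 CPM, then 1.15, 1.25 and 1.01 CPM, then 1.12, 0.814 and 1.05 CPM, and passed at neither time (log2 -0.21, SE 0.24, adjusted p = 0.675 and log2 -0.40, adjusted p = 0.253). Whether a small RNA and its host differed in their change was not tested. Libraries of this kind are not made to capture RNAs this short, so these counts do not measure the processed small RNAs.

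**Figure D3:**
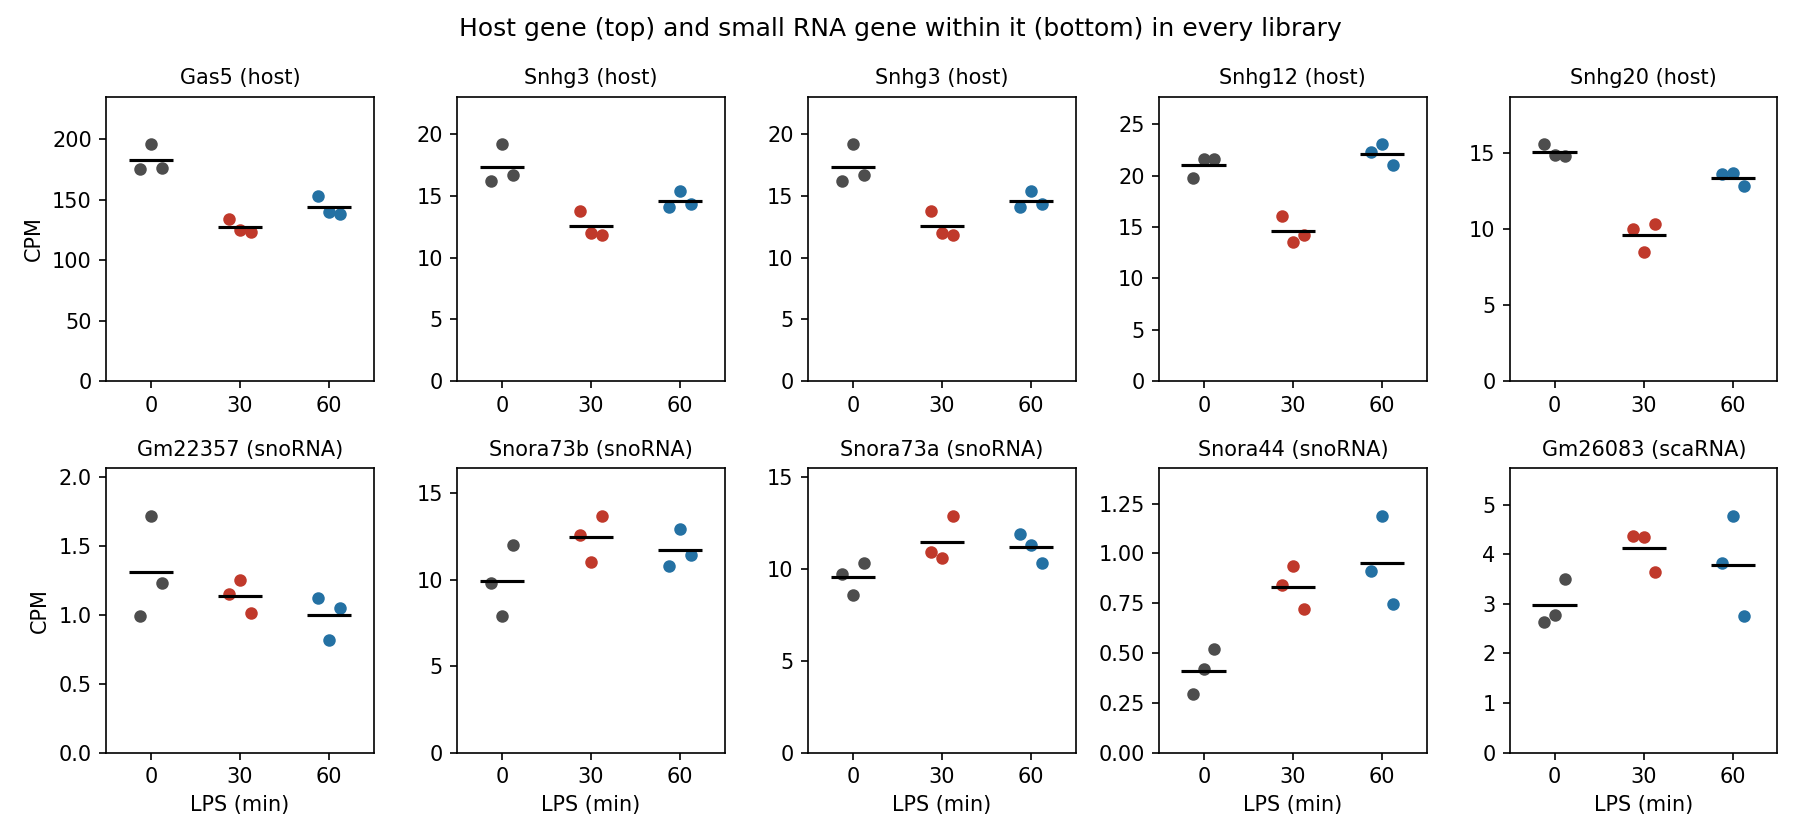
CPM of the host (top) and of the small RNA gene inside it (bottom), vertical axes from 0 and scaled per panel, against minutes of LPS; points are the 3 libraries of each time and bars their mean. For Snora73a, Snora73b, Snora44 and Gm26083 the mean at 30 min is above that at 0 min, while Snhg3, Snhg12 and Snhg20 have a lower one. For Gm22357 and its host Gas5 the mean at 30 min is below that at 0 min in both. Snora73a and Snora73b also lie inside Rcc1, which is not drawn.

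For the lists that follow, the shares of all genes called higher and lower were 4.84% and 3.35% at 30 min. They were 13.3% and 11.7% at 60 min, and 8.87% and 7.65% from 30 to 60 min. Of 1507 annotated snoRNA genes, 50 could be tested, 46 of them outside the 10 hosts. At 30 min 1 of these 46 rose and 0 fell (38 had a log2 change above 0 and 8 below; median 0.24), and at 60 min 3 rose and 0 fell (median 0.29). Over all 50, 14 were higher and 0 lower at an unadjusted p under 0.05 at 30 min, and 11 and 1 at 60 min; DESeq2 called 2 higher and 0 lower at 30 min, and 6 and 0 at 60 min. Snord17 rose from 7.49 ± 0.749 CPM at 0 min to 11.6 ± 1.73 CPM at 30 min (SD, n = 3; log2 0.63, edgeR adjusted p = 0.00255) and was at 10.7 ± 0.729 CPM at 60 min (log2 0.51, adjusted p = 0.00374). Gm23262 rose at 60 min (log2 0.87, adjusted p = 0.0129), a call lost when replicate 1 of 0 min or replicate 1 or 2 of 60 min was dropped (adjusted p 0.057 to 0.0718). Snora74a also passed at 60 min (log2 0.43, adjusted p = 0.0474), and lost its call in 9 of the 16 alternatives (highest adjusted p 0.208), among them those without any 1 of the 3 libraries of 0 min, 30 min replicate 2, and 60 min replicates 1 or 2. From 30 to 60 min 0 rose and 1, Rnu3a, was called lower; it had 0 counts in 6 libraries and 169 to 189 in the other 3, 1 of them at 0 min. U3 RNA comes from near-identical gene copies among which RSEM shares reads, so this value is uncertain, and the call was lost in 7 alternatives (adjusted p 0.0856 to 0.254).

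Other non-coding genes with a small RNA inside numbered 62, and 19 were tested. At 30 min 1 rose and 4 fell, at 60 min 4 rose and 2 fell, and from 30 to 60 min 5 rose and 0 fell (10 and 0 at an unadjusted p under 0.05; 6 and 0 with DESeq2, 5 and 0 with limma-voom, 2 and 0 under scaling by total counts alone, here called total-count scaling). Their median log2 changes were -0.07, 0.07 and 0.18. The course of lower at 30 min and then higher, called in both steps, was shown by 2 of the 19, which were AC121821.1 and 1110038B12Rik. These tests are of genes outside the chosen 10, but the list was drawn up with earlier results of these data known.

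AC121821.1, which holds Snora74a, was at 64.1, 66.4 and 61 CPM at 0 min, 49.2, 44.0 and 45.5 CPM at 30 min, and 53.2, 51.0 and 51.9 CPM at 60 min. The groups did not overlap, and the order of the times was that of Gas5. It fell at 30 min (log2 -0.46, SE 0.05, edgeR adjusted p = 1.12e-05), remained lower at 60 min (log2 -0.30, SE 0.05, adjusted p = 0.000289) and was higher at 60 than at 30 min (log2 0.17, SE 0.05, adjusted p = 0.0253). The last call was lost when 30 min replicate 2 or 3 or 60 min replicate 1 was left out, and under total-count scaling (adjusted p 0.0706 to 0.128). 1110038B12Rik, which holds Snord52, was at 58.1, 63.8 and 57.3 CPM, then 48.6, 51.2 and 51.1 CPM, then 56.9, 56.9 and 60.4 CPM. It fell at 30 min (log2 -0.25, SE 0.05, adjusted p = 0.004) and overlapped the 0 min libraries again at 60 min (log2 -0.04, adjusted p = 0.586), having risen from 30 to 60 min (log2 0.21, SE 0.05, adjusted p = 0.00709).

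The other 2 that fell at 30 min were 9330159M07Rik (log2 -0.47, adjusted p = 0.0319) and 2700038G22Rik, the host of Snord93 (log2 -0.28, adjusted p = 0.0494). The first was also lower at 60 min (log2 -0.62, adjusted p = 0.0023). Both calls at 30 min were lost when 0 min replicate 1 or 30 min replicate 3 was dropped, that of 9330159M07Rik also without 0 min replicate 3 or 30 min replicate 1 (adjusted p 0.0611 to 0.129), and that of 2700038G22Rik also when replicate 2 of any time was dropped (adjusted p 0.0558 to 0.194). Gm15832, the host of Snord89, rose from 8.48 ± 0.790 CPM to 18.5 ± 4.46 CPM at 30 min and 21.5 ± 1.41 CPM at 60 min (SD, n = 3; log2 1.12, adjusted p = 7.96e-05 and log2 1.34, adjusted p = 4.39e-06). It overlaps Rnf149 on the same strand, and Rnf149 rose too, from 76.5 to 89.5 and 133 CPM (log2 0.79 at 60 min, adjusted p = 1.2e-07), so their reads cannot be fully told apart.

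Snhg1, with 8 small RNAs inside, had no lower mean at 30 min. It was at 84.4 ± 3.92, 84.6 ± 5.25 and 95.6 ± 4.69 CPM (SD, n = 3), passed at 60 min (log2 0.18, adjusted p = 0.0196), and lost this call when replicate 1 of 0 min or replicate 1 or 2 of 60 min was dropped, or under total-count scaling (adjusted p 0.0777 to 0.121). 1810032O08Rik, which holds Snord1a, Snord1b and Snord1c, rose from 13.0 to 17.8 CPM at 60 min (log2 0.45, adjusted p = 0.00163). AI506816 was at 476, 471 and 514 CPM, and its call at 60 min (log2 0.11, adjusted p = 0.0354) was lost in 8 alternatives, among them those that dropped replicate 1 or 3 of 0 min, 2 of 30 min, or 1 or 3 of 60 min (adjusted p 0.0524 to 0.379). The fifth gene that rose from 30 to 60 min, besides Snhg1 and AI506816, was Dancr, the host of Snora26 (4.48 to 6.53 CPM, log2 0.54, adjusted p = 0.0136); its call was lost when replicate 2 or 3 of 30 min or 1 of 60 min was dropped (adjusted p 0.0521 to 0.0696). In that step Snhg1 (log2 0.18, adjusted p = 0.0309) and AI506816 (log2 0.13, adjusted p = 0.0265) likewise depended on single libraries, replicate 2 of 30 min and 1 and 2 of 60 min for Snhg1, and any of 30 min and replicate 3 of 60 min for AI506816 (adjusted p up to 0.155 and 0.11).

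Protein-coding genes with a snoRNA inside, 206 tested of 259, moved little as a list: the median log2 change was 0.02 at 30 min and 0.04 at 60 min. At 30 min 5 rose and 4 fell, and at 60 min 35 rose and 10 fell; under total-count scaling these were 0 and 10, and 11 and 30, so the balance of directions depended on the scaling. None of the 4 that fell at 30 min had a log2 change below -0.4. They were Rbmx (log2 -0.23, adjusted p = 0.0215), Khdc4 (log2 -0.18, adjusted p = 0.0478), Cep295 (log2 -0.17, adjusted p = 0.0218) and Ppan, a factor of ribosome assembly (log2 -0.13, adjusted p = 0.0447). Each of these calls was lost when single libraries were dropped, which were 0 min replicate 1 and 30 min replicates 2 and 3 for all 4, 0 min replicate 3 for Rbmx and Khdc4, 0 min replicate 2 for Khdc4, Cep295 and Ppan, 30 min replicate 1 for Ppan, and 60 min replicate 2 for Khdc4 and Ppan (highest adjusted p 0.10, 0.184, 0.107 and 0.152).

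Ribosomal protein genes, the classical 5′ TOP mRNAs, showed no dip. Some of them, such as Rps16, hold a snoRNA and are also counted among the protein-coding hosts above. Of 79, 5 rose and 0 fell at 30 min (28 and 1 at an unadjusted p under 0.05), 15 rose and 0 fell at 60 min, and 0 passed from 30 to 60 min (1 higher and 0 lower at an unadjusted p under 0.05; 0 with DESeq2 and limma-voom). The median log2 change was 0.07 and 0.08. Under total-count scaling the calls were 1 and 0 at 30 min and 1 and 2 at 60 min. Rps14 had the highest called log2 change at 30 min (log2 0.28, adjusted p = 0.0419), a call lost when replicate 1 or 2 of 0 min or 2 or 3 of 30 min was dropped, among other settings (adjusted p 0.0653 to 0.182).

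The list called translation factors here holds 18 genes with 5′ TOP mRNAs. It includes Hnrnpa1, an RNA-binding protein that is not a translation factor. Of the 18, 0 rose and 1 fell at 30 min, and 2 rose and 1 fell at 60 min, with medians of -0.00 and 0.04. The balance at 60 min depended on the method, with 5 higher and 1 lower by DESeq2 and by limma-voom, and 0 higher and 2 lower under total-count scaling. The gene that fell was Eef1d, a subunit of the elongation factor complex, at both times (log2 -0.13, adjusted p = 0.0276 and log2 -0.10, adjusted p = 0.0397), and the 2 that passed upwards at 60 min were Hnrnpa1 (log2 0.16, adjusted p = 0.0425) and Eef1a1 (log2 0.11, adjusted p = 0.0371). The Eef1d call at 30 min did not survive dropping replicate 1 or 3 of 0 min or replicate 2 or 3 of 30 min, and the 3 calls at 60 min were each lost without several libraries, 0 min replicates 1 and 3 and 60 min replicates 1 and 2 among them in each case (highest adjusted p 0.397).

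Of 20 proteins of the snoRNA particles and their assembly, 0 passed at 30 min with edgeR (1 higher and 3 lower at an unadjusted p under 0.05; DESeq2 called 0 higher and 2 lower, limma-voom 0) and 2 rose and 0 fell at 60 min. Under total-count scaling 0 were higher and 3 lower at 30 min, and 1 higher and 2 lower at 60 min. Rrp9, which binds the U3 snoRNA, went from 50.5 ± 1.19 to 58.8 ± 3.08 CPM at 60 min (SD, n = 3; log2 0.22, adjusted p = 0.00485). Nop58, a core protein of box C/D particles, went from 314 ± 20.5 to 345 ± 6.13 CPM (log2 0.14, adjusted p = 0.0439), and this call was lost in 8 alternatives, among them those that dropped replicate 1 or 3 of 0 min, replicate 2 of 30 min or any library of 60 min (adjusted p 0.0523 to 0.285).

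Of 18 factors of nonsense-mediated decay, 0 passed at 30 min with edgeR, DESeq2 or limma-voom (0 higher and 1 lower at an unadjusted edgeR p under 0.05). At 60 min 1 rose and 3 fell, where 13.3% and 11.7% of all genes did, against 0 and 7 under total-count scaling. Nothing about decay as a pathway is read from counts this small. Upf2, a core factor, fell from 80.0 ± 1.68 to 67.7 ± 3.34 CPM (SD, n = 3; log2 -0.24, adjusted p = 0.000833). Upf3b (log2 -0.22, adjusted p = 0.00809) and the helicase Upf1 (log2 -0.12, adjusted p = 0.0147) fell, and Smg8, a regulator of the kinase that phosphorylates Upf1, rose (log2 0.18, adjusted p = 0.00543). The Upf1 call did not survive dropping 0 min replicate 1 or 60 min replicate 2 (adjusted p 0.056 to 0.0698), and that of Smg8 under total-count scaling (adjusted p = 0.0801).

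**Figure D4:**
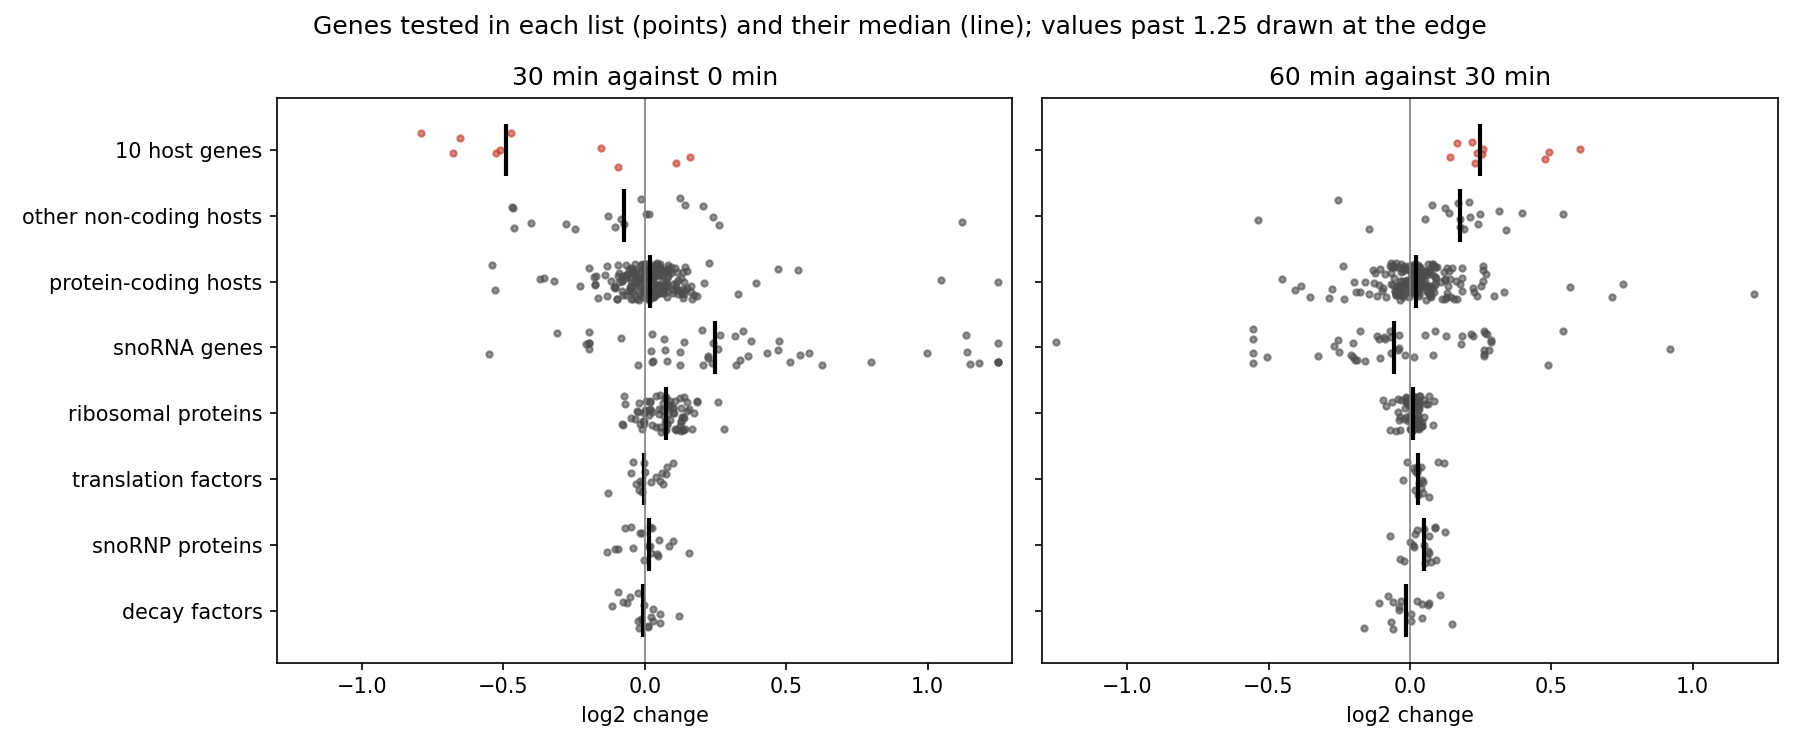
log2 change of every tested gene (points) in the 10 host genes and the lists (vertical axis), from 0 to 30 min and from 30 to 60 min (horizontal axes, values past 1.25 drawn at the edge); black lines are medians. The 10 hosts lie at a median of -0.49 and then 0.25, the other non-coding hosts at -0.07 and 0.18, and the protein-coding hosts and ribosomal proteins near 0.

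Genes that overlap a host on the opposite strand or start close to it numbered 4, and 3 were tested. Zbtb37, opposite Gas5, fell from 29.5 ± 0.485 to 24.7 ± 0.396 CPM at 30 min (SD, n = 3; log2 -0.25, adjusted p = 0.015) and was at 23.6 ± 1.97 CPM at 60 min (log2 -0.32, adjusted p = 0.00105). The 30 min call did not survive dropping replicate 2 of 0 min or of 30 min (adjusted p 0.0518 to 0.0633), and unlike in Gas5 the 60 min mean was no higher than that at 30 min. Znfx1, opposite Zfas1, was at 83.2 ± 6.82, 78.1 ± 5.00 and 74.6 ± 4.33 CPM and passed at neither time (log2 -0.09, adjusted p = 0.442 and log2 -0.16, adjusted p = 0.0801). Mcmdc2, opposite Snhg6, had few counts, at 0.284, 0.634 and 0.330 CPM (adjusted p = 0.127 at 30 min). Rcc1, which overlaps Snhg3 on the same strand and was looked up after the values were seen, was at 79.6, 81.0 and 82.3 CPM (log2 0.02, adjusted p = 0.838 at 30 min). Its span also holds Snora73a and Snora73b, so the reads of Rcc1, Snhg3 and these small RNAs cannot be fully told apart.

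Among genes above 5 CPM outside the 10, those most like the mean standardised course of the hosts over the 9 libraries were Yae1d1 (Pearson r = 0.966), Gm37653 (0.961), 5430416N02Rik (0.951), Gm42798 (0.948), Dancr (0.948), Gm37186 (0.935), 1810026B05Rik (0.932) and B230219D22Rik (0.932). Yae1d1 was at 47.4, 37.9 and 49.0 CPM on average at 0, 30 and 60 min, 1810026B05Rik at 30.3, 21.6 and 29.0 CPM, and Dancr at 6.19, 4.48 and 6.53 CPM. Of these 8, Dancr alone has an annotated small RNA inside. Of the hosts themselves, Snhg12 (0.982) and Snhg20 (0.906) were closest to the mean course, and Snhg15 (0.355) and Snhg17 (0.146) farthest from it; all 4 are part of that mean.

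Replicates of a time were distinct beyond sampling noise, and the spread between them was small (biological coefficient of variation 5.2%). The 8 macrophage markers summed to 1860 to 1940 CPM at 0 min, 1990 to 2020 CPM at 30 min and 2030 to 2120 CPM at 60 min with none at 0, and Cd14, an LPS co-receptor, went from 22.8 to 89.1 and 133 CPM. Marker lists of T cells (2 of 6 at 0), B cells (2 of 5), fibroblasts (3 of 5), epithelial cells (2 of 5) and neutrophils (2 of 5) summed to at most 0.593 CPM in any library.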

How the data were processed

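The authors deposited a table of expected counts per gene, estimated from total RNA of 9 libraries with RSEM 1.3.1 and not normalized. The submitters' processing notes also list STAR 2.7.0f, cutadapt 1.18, bcl2fastq 2.20, Picard 2.18.26 and build mm10; which annotation and which strand setting served the counting is not given in the sources used here. Because RSEM splits reads that match several genes, values of overlapping genes and near copies are uncertain. A DESeq2 table for 30 min and another for 60 min were deposited by the authors; per the file headers they hold a mean normalized count (a signal), a log2 fold change with its error, a test score, and p-values before and after adjustment.

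Between 5.04% and 5.32% of values per library were not whole and were rounded. Identifiers matched GENCODE M21 in 55450 of 55450 cases. CPM used totals scaled by TMM factors (0.9705 to 1.034); marker CPM used plain totals. Genes kept by filterByExpr (minimum count 10) entered a single fit by edgeR 4.0.16 (quasi-likelihood, R 4.3.3) of all 9 libraries with time as the only term. Calls are two-sided at a Benjamini-Hochberg adjusted p under 0.05 over all 14246 genes, and p-values measure the spread between these libraries. Replicate pairs differed by a mean chi-square of 4.74 to 17.3 per gene. Alternatives were DESeq2 1.42.0, limma-voom (limma 3.58.1), total counts as the only scaling, other filters, the replicate number as a block, the 6 libraries compared alone, and each library left out. Named are the hosts, all small RNAs within them and partners that could be tested, all called genes of lists with few calls, in lists of over 12 genes the 4 called genes with the largest change per time and direction, and the 8 genes above 5 CPM most like the hosts; not all are described, and 1 named gene is not reported here. The hosts and lists were chosen with earlier results of these data known.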

Additional observations from a re-analysis of the deposited data

Results flagged for a closer look

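In the gene lists outside the 10 hosts, 4 genes were called lower at 30 min against 0 min and then called higher at 60 min against 30 min by edgeR, so that their change in the second step had the opposite sign to that in the first. Genes chosen for the likeness of their course to the hosts are not counted here. The 4 were AC121821.1 (log2 0.17 from 30 to 60 min), 1110038B12Rik (log2 0.21), Khdc4 (log2 0.18, adjusted p = 0.0292) and Cep295 (log2 0.15, adjusted p = 0.0245). The first 2 were among 19 tested other non-coding hosts and the last 2 among 206 tested protein-coding hosts. This course was called in 0.807% of all genes, so Khdc4 and Cep295 are not read as a trait of protein-coding hosts. The Khdc4 call did not survive dropping replicate 2 or 3 of 30 min or any library of 60 min, nor did that of Cep295 dropping replicate 2 or 3 of 30 min or 1 or 3 of 60 min, and both were lost under total-count scaling (adjusted p 0.0510 to 0.146 and 0.0608 to 0.117).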

How the results depend on the processing

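No change of a host gene from 1 time to another turned sign in any of the 16 alternatives, and the median log2 change of the hosts ran from -0.55 to -0.43 at 30 min, from -0.12 to -0.02 at 60 min and from 0.20 to 0.29 between them; under total-count scaling it was -0.12 at 60 min. That scaling moved the median of all genes by -0.03, -0.07 and -0.04. No called change of a named gene outside the hosts turned sign in these alternatives. Replicate numbers did not pair the libraries: same-number correlations of deviations were -0.0637 to 0.00609, and 0 of 9 libraries correlated best with their own number. Leaving out a library changes both its group and the number of residual degrees of freedom; the cause of the other shifts was not tested.

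Counts of called genes that moved by over 1.5 times are given with the reported one in brackets, for 30 min, 60 min and 60 against 30 min. With no filter on low counts, genes lower at 30 min were 757 (477), snoRNP proteins 2 (0), protein-coding hosts 23 (9), snoRNA genes 15 (1) and ribosomal proteins 20 (5); at 60 min translation factors 1 (3), snoRNA genes 16 (4) and partners 2 (1); between them snoRNP proteins 1 (0), translation factors 1 (0) and snoRNA genes 8 (1). With the replicate block they were at 30 min other hosts 3 (5), translation factors 0 (1) and ribosomal proteins 2 (5); at 60 min translation factors 0 (3) and ribosomal proteins 9 (15); between them other hosts 3 (5) and snoRNA genes 0 (1). With DESeq2, snoRNP proteins 2 (0) and snoRNA genes 2 (1) at 30 min, translation factors 6 (3) at 60 min, and snoRNP proteins 1 (0), decay factors 1 (2) and snoRNA genes 0 (1) between them. With total counts alone, snoRNP proteins 3 (0) and ribosomal proteins 1 (5) at 30 min; genes lower 3048 (1671) with genes higher 1313 (1891), decay factors 7 (4), ribosomal proteins 3 (15) and partners 2 (1) at 60 min; genes lower 1672 (1090) and other hosts 2 (5) between them. With a minimum count of 50, snoRNP proteins 1 (0) at 30 min. With only the 6 libraries compared, protein-coding hosts 5 (9), snoRNA genes 5 (1) and ribosomal proteins 3 (5) at 30 min, snoRNP proteins 1 (2) and translation factors 0 (3) at 60 min, and snoRNP proteins 1 (0) and snoRNA genes 0 (1) between them. With limma-voom, translation factors 6 (3) at 60 min and snoRNA genes 0 (1) between them.

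With each library left out in turn, genes lower at 30 min ran from 290 to 523, with 290 without 0 min replicate 1, 310 without 30 min replicate 2 and 305 without 30 min replicate 3. At 30 min other hosts ran from 3 to 5, snoRNP proteins 0 to 2, translation factors 0 to 1, protein-coding hosts 2 to 11, snoRNA genes 1 to 6, ribosomal proteins 0 to 13 and partners 0 to 1. At 60 min snoRNP proteins ran from 1 to 6, translation factors 0 to 4, protein-coding hosts 27 to 49, snoRNA genes 2 to 9, ribosomal proteins 4 to 27 and partners 1 to 2. Between them other hosts ran from 1 to 7, snoRNP proteins 0 to 1, decay factors 0 to 2, translation factors 0 to 1, protein-coding hosts 12 to 28 and snoRNA genes 0 to 1.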

Other observations

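Among protein-coding genes with a snoRNA inside, the calls with the largest changes came at 60 min, and only some of them are described here. Ell2, an elongation factor of RNA polymerase II, was at 60.9 ± 5.00 CPM at 0 min, 60.7 ± 5.06 CPM at 30 min and 141 ± 7.72 CPM at 60 min (SD, n = 3; log2 1.21, edgeR adjusted p = 3.52e-09 at 60 min). Rnf149, a ubiquitin ligase, rose as given above. Tnpo2, a nuclear import receptor, fell from 98.0 ± 1.63 to 71.3 ± 0.143 CPM at 60 min (log2 -0.46, adjusted p = 1.41e-07), and Zfp808 from 9.23 ± 1.5 to 6.45 ± 0.511 CPM (log2 -0.52, adjusted p = 0.00575). Ell2, Tnpo2 and Zfp808 did not pass at 30 min (log2 -0.00, -0.10 and -0.07; adjusted p = 0.984, 0.0785 and 0.809).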
